A study of Homo sapiens with 2 samples.

Results

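The genes described here build and position the tight junction of epithelial cells. They are 41 genes, taken as a fixed list of claudins, tight junction membrane proteins and scaffolds and the genes of the Crumbs, PAR and Scribble polarity complexes. Of these, 40 had at least 1 probe set assigned to that gene alone, with 83 such probe sets among the 54613 of the array, and F11R was not analysed here. The samples were 2 stable lines of AGS, a gastric adenocarcinoma cell line. AGS.W carries a lentivirus with the coding region of WTX (AMER1), a tumour suppressor that acts at the plasma membrane and in the beta-catenin destruction complex, and AGS.veh carries the control vector. Both lines had been selected with puromycin, and whether each is a clone or a pool is not given in the sources used here. Each line was read on 1 Affymetrix U133 Plus 2.0 array. Without replicates no p-value could be computed, and each difference below is between 2 cultures. All values are log2 signals as the authors normalised them, a difference is AGS.W minus AGS.veh on that scale, and where signals are given as a pair AGS.W comes first.

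A tight junction is a belt of protein strands near the apex of epithelial cells that closes the space between neighbours. Claudins form the strands and set which ions and water may pass, occludin and its relatives sit at the contacts where cells meet, and ZO proteins and cingulin tie the strands to actin. The Crumbs complex and the PAR complex mark the apical side and place the junction, whereas Scribble and LLGL proteins hold the basolateral side. The gastric lining relies on tight junctions to hold back acid, and carcinomas often change the set of claudins they make.

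CLDN1, the claudin that seals the barrier in skin and many other epithelia, had the largest difference of these genes on their brightest probe sets and was lower in AGS.W. PATJ, the multi-PDZ scaffold of the Crumbs complex, had the next largest and was higher. No other gene of the list was 2-fold apart, the fold threshold of the methods of the study. Sequence before the transcription start is shown for both of these genes, and for CRB3 and CLDN7, which held the most copies of the E-box CACCTG before a start among the genes of the list above the signal filter described below. This E-box is the core site of SNAI and ZEB repressors, which are known to act on junction genes. Each run holds the 250 bases before a RefSeq transcription start of GRCh38.p14, written 5′ to 3′ along the gene, with CACCTG or its reverse complement CAGGTG in capitals. They lie at chr3:190322447-190322696 on the minus strand for CLDN1, chr1:61742230-61742479 on the plus strand for PATJ, chr19:6464021-6464270 on the plus strand for CRB3 and chr17:7262479-7262728 on the minus strand for CLDN7, and the last is 1 of 2 CLDN7 starts in that table.

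CLDN1: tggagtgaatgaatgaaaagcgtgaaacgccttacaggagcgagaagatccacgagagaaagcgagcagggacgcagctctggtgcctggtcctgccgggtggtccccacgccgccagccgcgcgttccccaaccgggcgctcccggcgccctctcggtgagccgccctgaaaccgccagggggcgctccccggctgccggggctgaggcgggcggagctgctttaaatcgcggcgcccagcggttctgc
PATJ: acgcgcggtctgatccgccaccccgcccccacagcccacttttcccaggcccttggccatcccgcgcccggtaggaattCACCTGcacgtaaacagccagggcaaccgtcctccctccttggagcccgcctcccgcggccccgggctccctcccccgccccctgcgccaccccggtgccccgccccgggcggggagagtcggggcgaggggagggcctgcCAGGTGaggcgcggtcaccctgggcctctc
CRB3: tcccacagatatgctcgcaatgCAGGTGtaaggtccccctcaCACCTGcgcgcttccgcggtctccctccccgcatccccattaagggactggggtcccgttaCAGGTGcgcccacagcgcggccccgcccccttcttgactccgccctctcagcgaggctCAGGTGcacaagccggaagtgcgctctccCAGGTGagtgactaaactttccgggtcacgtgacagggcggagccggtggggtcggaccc
CLDN7: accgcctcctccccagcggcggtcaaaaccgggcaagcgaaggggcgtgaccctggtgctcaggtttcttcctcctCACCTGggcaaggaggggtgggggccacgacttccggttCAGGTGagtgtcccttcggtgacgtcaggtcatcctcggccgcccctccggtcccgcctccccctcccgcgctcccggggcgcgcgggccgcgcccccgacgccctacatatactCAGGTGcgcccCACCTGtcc

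The CLDN1 run held no copy. PATJ held 2, at -171 and -30 from the start, CRB3 held 5 between -228 and -60, and CLDN7 held 4 between -174 and -9, whereas the window of the other CLDN7 start held 0. Windows of 300 bases, 50 of them after the start, were found for 28 of the 41 genes, and 12 of these genes had the letters in at least 1 window. Counted as windows, 15 of 43 held them, or 34.9%, beside 20.6% of all 35116 windows, and windows of the same gene can overlap. A match is a description of these letters and not a binding site.

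The labels name a brain tissue in the extraction text, while their other fields and the methods name AGS cells. KRT8 and KRT18, keratins of simple epithelia, lay at 9.76 and 10.87 in AGS.W and at 10.13 and 11.17 in AGS.veh, and EPCAM, an epithelial adhesion molecule, at 6.88 and 5.96. The signal filter was the array median, 4.02 in AGS.W against 4.03 in AGS.veh, reached on at least 1 array by the brightest probe set of a gene. By it 12811 of all 19775 genes passed. Of 7 epithelial markers 4 passed, and KRT19, KRT20 and CDH1 did not. CDH1, which encodes E-cadherin, had only 2.72 and 2.50, so this defining gene of epithelial adhesion was below the array median in both lines. Of the markers of other cells, 7 of 15 measured for brain passed, as did 2 of 7 for endothelium, 3 of 7 for fibroblasts and 3 of 6 for immune cells. None of these genes was 2-fold apart, beside 1.83% of all genes above the filter on the higher side and 1.94% on the lower side. The fibroblast markers COL1A1 and PDGFRB came nearest, with 0.94 and -0.98 on their brightest probe sets. Each marker list, the epithelial one included, passed less often than all genes. GFAP of astrocytes and NEFL of neurons were dim, at 3.44 and 2.97 and at 3.23 and 3.03. GAD1 of inhibitory neurons at 7.06 and 7.11, MBP of myelin at 6.10 and 6.19 and SLC17A7 of excitatory neurons at 5.02 and 4.76 were above the filter in both lines. WTX itself had 3.70 in AGS.W against 3.86 in AGS.veh on its only probe set, and whether that probe set lies in the coding region of the vector was not tested, so it does not check the labels.

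Of the junction and polarity genes, 26 passed the filter and 14 did not, a share close to the 12811 of 19775 over all genes. Among the 26, 1 was at least 2-fold higher in AGS.W and 1 at least 2-fold lower, which is 3.85% in each direction. Of all 12811 genes that passed the filter, 1.83% passed 2-fold on the higher side and 1.94% on the lower side, so a single gene of 26 in each direction is close to the background. At 1.5-fold, 3 were higher and 1 was lower, beside 6.64% and 7.37% of all genes. The median difference of the 26 was 0.04 and that of all genes -0.01. A value above 0 was seen for 16 of the 26, or 61.5%, beside 45.7% of all genes, of which 495 had identical values on both arrays. As means over all probe sets 13 of the same 26 were above 0, or 50%, beside 47.5% of all genes. The differences of 22 of the 26 lay within 0.5 of 0, or 84.6%, beside 81.3% of all genes. That share is close to that of all genes, so small differences were no trait of this group.

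**Figure D1:**
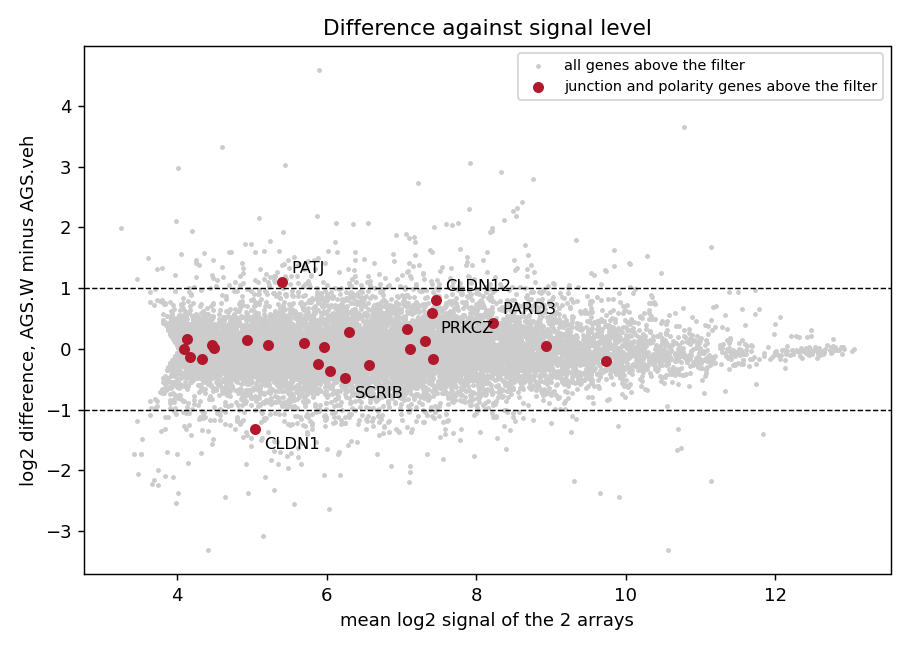
Log2 difference AGS.W minus AGS.veh (vertical axis) against the mean log2 signal of both arrays (horizontal axis), with 12811 genes above the signal filter in grey, the 26 junction and polarity genes among them in red, and dashed lines at 2-fold. PATJ lies above the upper line with 1.11 and CLDN1 below the lower one with -1.32, and the others lie between the lines.

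The CLDN1 signal was 4.39 in AGS.W against 5.71 in AGS.veh. It was 2.49-fold lower in AGS.W, a difference of -1.32, which ranked 206 by size among the 12811 genes. Its second probe set was also lower, with 2.41 against 3.01, but both of these values are below the array medians. As the mean of both probe sets the difference was -0.96, under 2-fold.

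The other claudins above the filter lay on either side of 0. CLDN12, a claudin without the PDZ-binding end that ties most others to ZO proteins, was next in size, at 7.86 in AGS.W and at 7.06 in AGS.veh. That is 1.75-fold higher, on a single probe set. CLDN7, which is common in gastrointestinal epithelium, had 7.24 and 6.92, a difference of 0.32. CLDN11, known from myelin and testis, had 5.01 and 4.86. Its other probe sets, both dim, had differences of -0.93 and 0.00, so its probe sets gave no common direction. CLDN9 had 4.50 and 4.49, and CLDN19, a claudin of the kidney and eye, had 5.99 and 5.95, so these were near equal in both lines. CLDN5, the main claudin of endothelium, had an identical value of 4.09 on both arrays, just above the medians.

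On the lower side of 0, CLDN4, which is often abundant in carcinomas, had 5.87 in AGS.W against 6.23 in AGS.veh, a difference of -0.37. Its other probe set had the opposite sign, with 4.17 against 3.89, and passed the filter through AGS.W alone. CLDN15, a pore-forming claudin of the intestine, had 6.43 and 6.70 on its brighter probe set. Its dimmer one had 4.16 and 5.01, a difference of -0.84, so both were lower and neither by 2-fold. CLDN6, an embryonic claudin, had 5.75 and 6.01, and CLDN16, which serves magnesium uptake in the kidney, had 4.11 and 4.24. Of the 11 claudins above the filter, 5 were higher, 5 lower and 1 identical, and their median difference was 0.00.

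The remaining 8 claudins, CLDN2, CLDN3, CLDN8, CLDN10, CLDN14, CLDN17, CLDN20 and CLDN23, were below the median on both arrays. Their signals ran from 1.58 to 3.97 and their differences from -0.26 to 0.55, the last for CLDN8 with 2.13 and 1.58. Signal at this level may be background, so no direction was read from it. CLDN2 forms cation pores and CLDN3 is a sealing claudin of the gut. CLDN18, whose gastric isoform is the claudin of normal stomach lining, is not on the list and was also dim, with signals of 3.59 and 3.33.

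**Figure D2:**
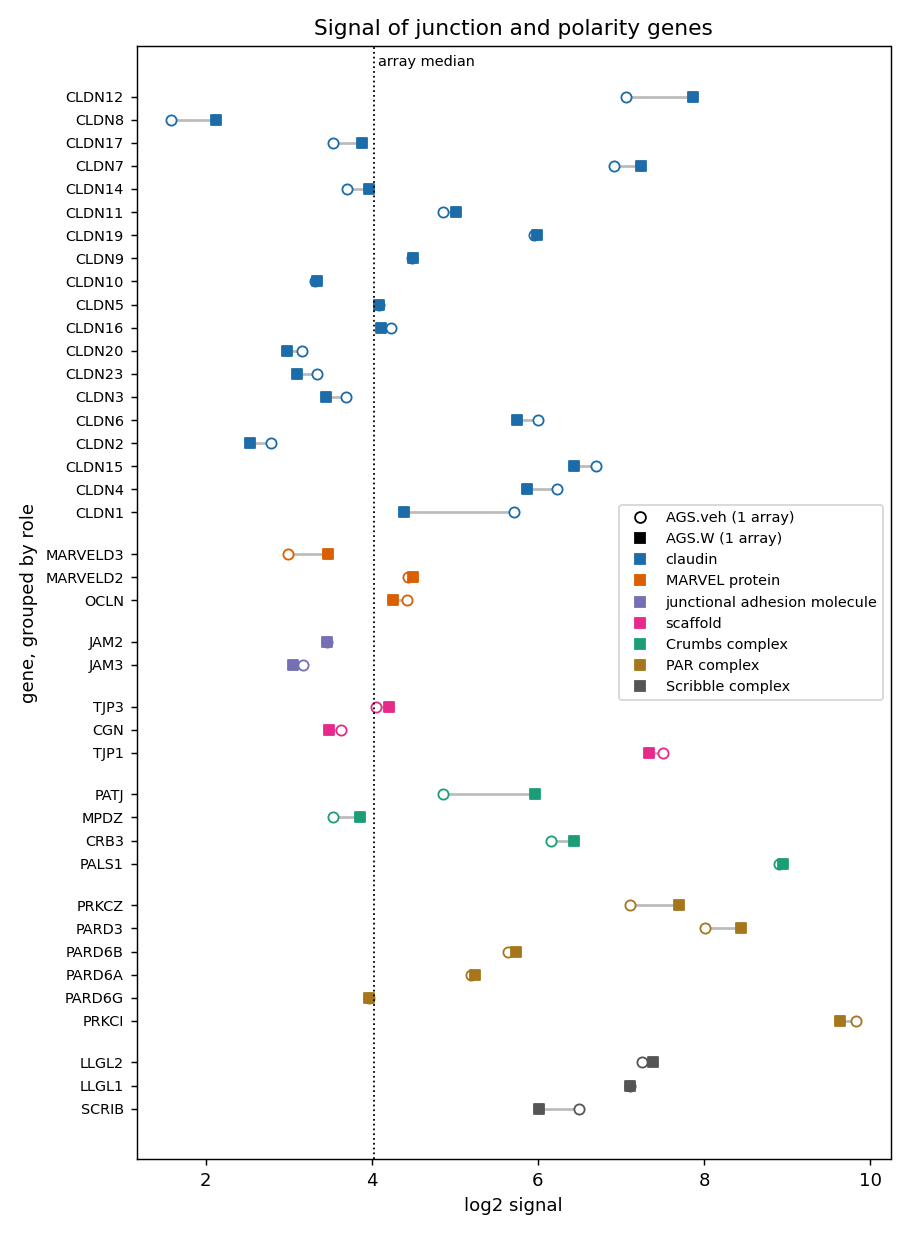
Signal on the log2 scale (horizontal axis) for the brightest probe set of each of 40 junction and polarity genes in AGS.veh (open circles) and AGS.W (filled squares), 1 array each, grouped by role and ordered by difference within a role, with the array median as a dotted line. CLDN1 spans 4.39 to 5.71 and PATJ 4.85 to 5.96, and for most other genes both symbols nearly touch. Signals of different genes come from different probes and cannot be ranked against each other.

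Occludin and tricellulin were close to equal in both lines. OCLN, the first membrane protein known at tight junctions, had 4.25 in AGS.W against 4.42 in AGS.veh, only just above the medians. MARVELD2, or tricellulin, which closes the corners where 3 cells meet, had 4.50 and 4.44. MARVELD3 was below the filter with 3.47 and 2.99, a difference of 0.48. The probe sets of each of these 3 genes fell on both sides of 0. Of the junctional adhesion molecules, immunoglobulin-like proteins of the same contacts, JAM2 was identical at 3.47 on both arrays and JAM3 had 3.05 and 3.17, all below the medians.

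Among the scaffolds, TJP1, which encodes ZO-1, had 7.34 in AGS.W against 7.50 in AGS.veh, a difference of -0.16. Its other probe set was identical on both arrays, at 4.21. TJP3, which encodes ZO-3, had 4.21 and 4.05, and CGN, which encodes cingulin, was below the filter with 3.49 and 3.63. Thus no scaffold was 1.5-fold apart.

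On their brightest probe sets all 3 genes of the Crumbs complex above the filter were higher in AGS.W, beside 45.7% of all genes. PATJ was the only one by more than 1.5-fold. Its difference of 1.11 exceeded the robust spread of the genes nearest in signal, 0.33. That spread is between genes and not between replicates. CLDN1, CLDN12, PRKCZ, SCRIB, PARD3 and CLDN4 exceeded theirs too. CRB3 with 0.27 and PALS1 with 0.05 lay within their spreads, 0.37 for each. As the mean over its probe sets PALS1 had -0.19, so no shift of the whole complex was read. PATJ had 5.96 in AGS.W against 4.85 in AGS.veh, which is 2.15-fold and ranked 365 by size among the 12811 genes. Of its 6 probe sets, 4 were higher, 2 were identical on both arrays and none was lower. A second one had 4.08 and 3.34, a difference of 0.74, and reached the array median in AGS.W alone, so it passed the filter through the higher line and is no independent support. The largest difference, 1.47, came from a dim probe set with 2.63 and 1.17, and the mean over all 6 was 0.62, under 2-fold. CRB3, the small transmembrane protein of the complex in epithelia, had 6.43 and 6.16 on its single probe set. PALS1, which links Crumbs to PATJ, had 8.95 and 8.90, while its second probe set was lower with 6.60 against 7.03, so its direction was not shared. MPDZ, a close relative of PATJ, was below the filter with 3.86 and 3.54.

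In the PAR complex 4 of 5 genes above the filter were higher and 1 was lower, beside 45.7% of all genes above 0. Of the 4, PARD6A with 0.06 and PARD6B with 0.10 lay within their spreads, 0.33 and 0.34. No shift of the whole complex was therefore read. PRKCZ, the atypical protein kinase C zeta, had 7.70 in AGS.W against 7.11 in AGS.veh, which is 1.51-fold higher on its single probe set. PRKCI, the other atypical kinase of the complex, had 9.63 and 9.83, a difference of -0.20, while its other probe set above the filter had -0.12 and a dim one had 0.25. PARD3, the scaffold that brings the kinase to the junction, had 8.44 and 8.02. All 4 of its probe sets were above the filter and higher, by 0.11 to 0.44, all of the _s_at or _x_at types, whose probes match several transcripts. PARD6A and PARD6B, adaptors between CDC42 and the kinase, had 5.25 and 5.19, and 5.74 and 5.64. PARD6G was identical at 3.97, below the filter. The difference of PRKCI lay within its spread of 0.32 and PRKCZ rests on a single probe set, so no contrast between the pair of kinase genes was read.

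Of the basolateral genes, SCRIB, the scaffold after which the complex is named, was lower, at 6.01 in AGS.W and at 6.49 in AGS.veh on its single probe set, a difference of -0.48. LLGL1 had 7.11 on both arrays to 2 decimals, and its dimmer probe sets had -0.07 and -0.14. LLGL2, the form found in epithelia, had 7.38 and 7.25, and 7.03 and 6.87 on its other probe set. Neither LLGL gene differed by 1.5-fold.

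Of the 83 probe sets, 13 had identical values on both arrays, and 11 of these were below the filter. Over all 54613 probe sets 12.6% were identical, and 81.5% of those lay at or below both medians, so this is not particular to these genes.

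**Figure D3:**
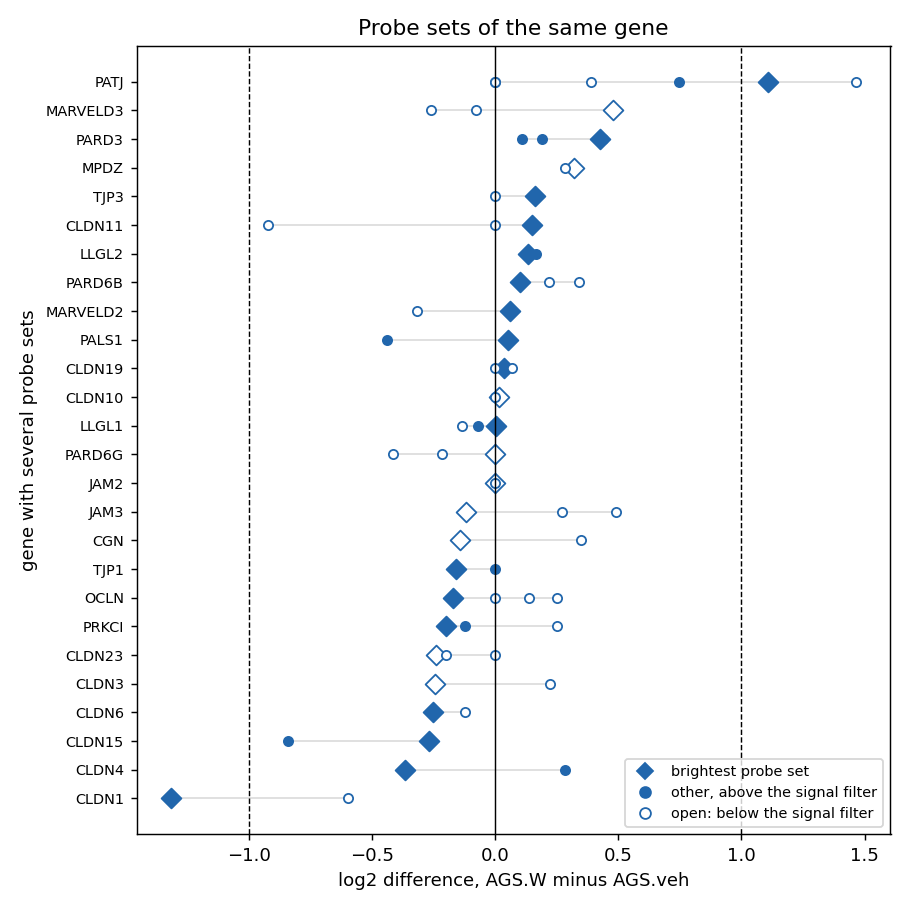
Log2 difference AGS.W minus AGS.veh (horizontal axis) of each probe set of the junction and polarity genes that had several, with diamonds for the brightest probe set, circles for the others and open symbols for probe sets below the signal filter. PATJ runs from 0.00 to 1.47 with no probe set below 0, both probe sets of CLDN1 are below 0, and those of CLDN4 and PALS1 lie on both sides.

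Other genes of the same structures were read from a longer list that shares no gene with the 41. Of 46 further junction and polarity genes, 40 were measured and 30 passed the filter, with 1 at least 2-fold higher, 1 at least 2-fold lower and a median of -0.01. Of all genes above the filter 1.83% were 2-fold higher and 1.94% lower, so 1 of 30 in each direction is close to the background. A value above 0 was seen for 13 of the 30, or 43.3%, beside 45.7% of all genes. As means over all probe sets, a setting added after seeing the data, 16 of the 30 were above 0, beside 47.5% of all genes. CRB1, the form of Crumbs best known from the retina, was higher, at 5.49 in AGS.W and at 3.90 in AGS.veh, where it lay below the median. CRB1 thus passed the filter through AGS.W alone, none of its other probe sets passed, and it is the only gene behind the higher count. With its AGS.veh signal set to the median the gap was 2.76-fold. The mean over its probe sets was 0.81, under 2-fold. DLG3, a scaffold related to TJP1, and AMOTL1, a motin that binds PATJ, were higher by 0.83 and 0.71. Their other probe sets above the filter ran from 0.02 to 0.65 for DLG3 and from 0.41 to 0.71 for AMOTL1. AMOTL2, a relative of AMOTL1, was lower with 7.92 against 9.10, 2.26-fold on a single probe set. CDC42, the small GTPase that activates the PAR complex, and ERBIN each had -0.38. The AMOTL pair thus lay on opposite sides of 0.

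Genes of adherens junctions and desmosomes, the strong contacts below the tight junction, were all within 2-fold. Of 14 above the filter, 11 were higher, 2 lower and 1 identical on the brightest probe sets, with a median of 0.18. The higher ones made up 78.6%, beside 45.7% of all genes, whose median was -0.01. As means over all probe sets, a setting added after seeing the data, 8 were higher and 5 lower with a median of 0.05, and NECTIN2, NECTIN3 and AFDN turned below 0. By such means 47.5% of all genes were above 0. JUP, or plakoglobin, had 8.88 in AGS.W against 8.56 in AGS.veh. CTNNA1, or alpha-catenin, had 10.47 and 10.18, while the other probe sets of CTNNA1 ran from -0.54 to 0.67. AFDN, or afadin, had 0.27. NECTIN4, an adhesion receptor, was the only one past 1.5-fold, 1.69-fold lower with 4.29 against 5.05 on a single probe set. NECTIN1 had -0.21, while its other probe set above the filter had 0.08.

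Regulators of epithelial genes were also within 2-fold on their brightest probe sets. Of 12 above the filter, 6 were higher and 6 lower, with a median of -0.02, beside 45.7% of all genes above 0. SNAI2, the repressor Slug, had 7.36 in AGS.W against 8.20 in AGS.veh, a difference of -0.83 on its single probe set, and GRHL1 had 5.77 and 6.49, a difference of -0.72. TWIST2 had -0.31. KLF4, TWIST1 and CDX1 had 0.55, 0.48 and 0.29. ZEB1, a repressor of epithelial genes, was well above the filter and near equal, at 8.56 and 8.51, whereas GRHL2 and ESRP1, which maintain the epithelial state, were below it in both lines. ELF3, an epithelial ETS factor, had 0.12 on its brightest probe set but -1.21 and -0.99 on the others above the filter. These 4 were picked after their values were seen. Whether any regulator has a part in the difference of CLDN1 or PATJ was not tested.

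**Figure D4:**
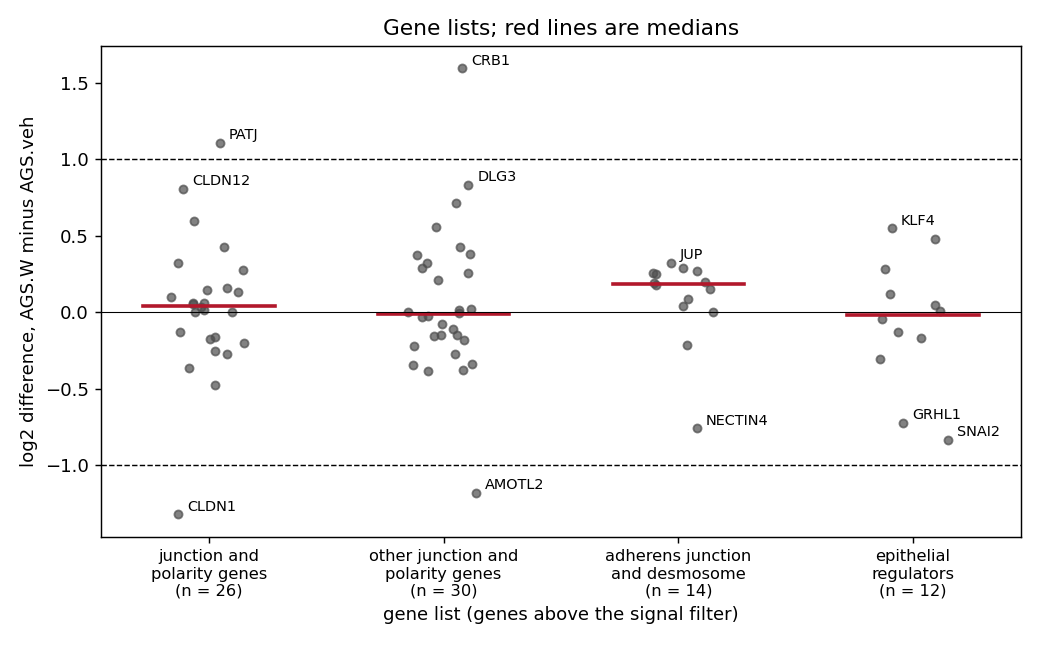
Log2 difference AGS.W minus AGS.veh (vertical axis) of each gene above the signal filter in 4 gene lists (horizontal axis), with red lines at the medians and dashed lines at 2-fold; sideways scatter has no meaning. The medians are 0.04, -0.01, 0.18 and -0.02 from left to right, and PATJ, CLDN1, CRB1 and AMOTL2 lie outside the dashed lines.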

How the data were processed

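Log2 signals per probe set of an Affymetrix U133 Plus 2.0 array, 1 array for AGS.W and 1 for AGS.veh, were used as deposited by the authors, who had normalised them between arrays. Their labels list RMA and MAS5, without versions, and how background was corrected or probe sets were defined is not given in the sources used here. A total of 62 control probe sets were left out. Platform annotation of 2016 gave 41091 probe sets to 1 gene, with symbols updated through RefSeq gene identifiers (GRCh38.p14), and 2 probe sets that pair a listed gene with another gene were not used. A gene was represented by its brightest probe set on the mean of both arrays. The threshold was 2-fold, and the FDR of the methods needs replicates. Genes above the filter were described one by one, and from each further list the 3 largest differences in each direction. Markers of epithelium, brain, endothelium, fibroblasts and immune cells were listed too. The gene lists and members were chosen with earlier results of these data known. The precision is limited by the number of arrays. The calculation was tested on simulated data. Alternatives were other ways to pick or average probe sets, scaling (median, quantile, lowess with span 0.3), signal filters and folds of 1.5 and 3. Python 3.11.15, numpy 2.4.6, pandas 2.3.3, matplotlib 3.10.9 and statsmodels 0.14.6 were used.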

Additional observations from a re-analysis of the deposited data

How the results depend on the processing

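No paired analysis was possible because there was a single array for AGS.W and for AGS.veh, which also left no replicate to drop. An offset before the log2 step did not apply to log2 values. Of the genes 2-fold apart, 2 in the report, none was left as the mean of all probe sets (0), 1 was left without _x_at and _s_at probe sets (CLDN1), 1 with the probe set of largest difference (CLDN1, as that of PATJ is below the filter), 1 where the upper quartile had to be reached on 1 array (PATJ), 4 passed at 1.5-fold and 0 at 3-fold. Genes above 0, 16 in the report, numbered 13 of 26 as the mean of all probe sets, 9 of 18 with the probe set of largest difference and 10 of 16 with the upper quartile. The median difference lay between 0.01 and 0.05 under all 9 alternatives run for it. Of 155 alternative values of single genes, 143 moved by less than the robust spread of the 1000 genes nearest in signal (0.23 to 0.40), and none of the 12 others came from scaling. Many of the 155 could hardly move. Scaling shifts genes of like signal together, and a gene with a single probe set has nothing to pick or average. The 143 are thus no measure of how robust the values are. The sign changed for 6 genes (CLDN11, OCLN, MARVELD2, PALS1, PRKCI and LLGL1), whose values in the report were all within 0.20 of 0. Their changed values reached further, to -0.93 for CLDN11 and -0.44 for PALS1 with the probe set of largest difference. PATJ ranged from 0.62 to 1.47 and CLDN1 from -1.32 to -0.96 over the ways to summarise probe sets.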
